A study of Homo sapiens with 16 samples.

Results

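The SR proteins are a family of splicing factors that bind pre-mRNA through RNA recognition motifs and contact the rest of the splicing machinery through a domain rich in arginine and serine. They help to define exons, and several of them shuttle to the cytoplasm, where they take part in mRNA export and translation. SR genes are known to limit their own expression: many hold alternative exons or introns whose use gives an mRNA that is degraded by nonsense-mediated decay. Counts per gene, as used here, do not tell such isoforms from the coding mRNA. The members described here were 10 genes taken by symbol (SRSF1, SRSF2, SRSF3, SRSF4, SRSF5, SRSF6, SRSF7, SRSF9, SRSF10 and SRSF11) out of the 58302 gene identifiers of the count files, and all 10 passed the filter on low counts in every comparison. SRSF8 and SRSF12 are not among them and are held in a list of related genes below.

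The libraries came from HEK293, an established human embryonic kidney line. Gemin5, an RNA-binding protein of the machinery that assembles spliceosomal snRNPs, was silenced with 100 nM of 1 siRNA (siRNAG5), and Ctrl cells did not get that siRNA. The labels call the Ctrl cells untreated. The study gives the sequence of a control siRNA and names it as the reference (Ctrl) for Gemin5 silencing, so labels and study differ on this. RNA from cytoplasmic lysates (Input) and from polysomes of sucrose gradients (Polysome) gave 4 libraries in each of Input Ctrl, Input siRNAG5, Polysome Ctrl and Polysome siRNAG5, 16 in all. In RNA from whole cultures, fewer cells holding an mRNA and less of it per cell cannot be told apart.

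Reads counted on genes ranged from 11145324 to 24511299 per library, and the members had between 510 (SRSF6 in Input siRNAG5 1) and 21699 reads (SRSF9 in Polysome siRNAG5 4) in a library. GEMIN5 was lower in siRNAG5 in both fractions, with a log2 fold change (FC) of -1.40 (SE 0.119, edgeR adjusted p = 3.105e-10) in Input and -1.44 (SE 0.211, edgeR adjusted p = 0.004768) in Polysome. All 7 HEK293 markers had reads in every group. Reads on 10 liver markers numbered 13 to 20 in Input Ctrl 1 and 2, 1216 and 1464 in Input Ctrl 4 and 3, 1273 to 1765 in Polysome Ctrl, and 5 to 21 in the 8 siRNAG5 libraries, and reads on 3 haemoglobin genes numbered 5 to 45 per library. The Polysome libraries stood apart in 2 sets that crossed the treatments, on the third principal component of all genes (8.26% of the variance). Ctrl 1, siRNAG5 1 and siRNAG5 4 made the high set, Ctrl 3, Ctrl 4, siRNAG5 2 and siRNAG5 3 the low set, and Ctrl 2 lay between them.

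The siRNA is shown because its seed could pair with other mRNAs. In the strand printed in the labels, capitals mark the stretch that the seed of the opposite strand pairs with, and in the opposite strand they mark that seed, bases 2 to 8.
Listed strand: ccuuaaucaagAAGAGAAauu
Opposite strand without its overhang: uUUCUCUUcuugauuaagg
Of 11885 coding genes tested in Input, 1 held the full 19-base target in its canonical mRNA (GENCODE v44), and it was GEMIN5. The seed site AAGAGAA, searched on the mRNA strand alone, lay in the mRNAs of 4 of the 10 members (40%), against 47.33% of the coding genes. SRSF4 and SRSF11 held 3 and 4 sites in the coding sequence, and SRSF3 and SRSF10 held 2 and 1 in the 3' UTR. The sites in the 3' UTR of SRSF3 are printed with the bases around them, the site in capitals.
SRSF3 at bases 630 to 636 of the mRNA: agacagtttgcAAGAGAAgtggtgtacag
SRSF3 at bases 2549 to 2555 of the mRNA: ataatatggctAAGAGAAataatacagaa
SRSF1, SRSF2, SRSF5, SRSF6, SRSF7 and SRSF9 held no such site. A site for the seed of the listed strand, GATTAAG, lay in the 3' UTR of SRSF1 (3 sites) and SRSF6 (1 site), 20% of the members against 7.741% of the coding genes. These shares were not matched for length. The 3' UTR is 4490 bases long in SRSF1 and 3183 in SRSF6, with a median of 1894 over the members and 1325 over the coding genes. What these matches contribute to the values below was not tested.

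The start of the mRNA was looked at because the study deals with mRNAs whose 5' end is a C followed by pyrimidines, the start typical of ribosomal protein mRNAs. RefSeq promoters (GRCh38.p14) were at hand for 9 members, 11 promoters in all, and a start was counted where a C at the first base opened a run of at least 5 pyrimidines on the gene's strand. SRSF9 was the 1 member with such a start, with a run of 6. This was 9.09% of the members' promoters, against 4.07% of all promoters of the table, 5.23% of those of coding genes tested and 57.3% of those of ribosomal protein genes. The RefSeq start of SRSF9 and those of 3 other members are printed for comparison. The 10 bases before that start are in lower case and the 10 bases from it in capitals. In GENCODE v44 each of these genes begins upstream of it (SRSF9 at 120495946, SRSF3 at 36594353, SRSF1 at 58007346 and SRSF6 at 43457893). Such gene bounds take in all annotated transcripts, so the capitals need not be the first bases transcribed.
SRSF9, chr12:120469739-120469758, minus strand: ctccgccgacCCCTTCGCTT
SRSF3, chr6:36594352-36594371, plus strand: aggcggtggtCCGCCATTTC
SRSF1, chr17:58007237-58007256, minus strand: tgataaaggcGCCATTTTGG
SRSF6, chr20:43457886-43457905, plus strand: cgcgcgcgccATTGTGTGGC

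Levels are given in CPM, a gene's reads relative to the library total, scaled by TMM (trimmed mean of M values) over the 16 libraries, and between genes they are compared per kb of canonical transcript. SRSF9, an SR protein with a short arginine-serine domain, was the most abundant member in every group, with 939 to 1080.0 CPM per kb in the 4 Input Ctrl libraries. It was followed in Input Ctrl by SRSF7 (241 ± 26.3 CPM per kb, SD, n = 4), SRSF2 (207 ± 20.1), SRSF3 (151 ± 8.83), SRSF5 (94.9 ± 4.13) and SRSF4 (43.9 ± 1.24). SRSF6 (19.3 ± 1.92 CPM per kb), SRSF1 (18.2 ± 2.94), SRSF11 (18.05 ± 1.14) and SRSF10 (13.2 ± 1.08) closed the order. SRSF1 shares 1690 of the 5343 bases of its canonical transcript with another gene on the same strand. Reads there may not have been counted, so its value per kb may be too low. The libraries of SRSF7 overlapped those of SRSF2, and those of SRSF6 and SRSF1, and of SRSF1 and SRSF11, overlapped, so these places in the order do not differ beyond the spread. The first 5 places in Input Ctrl held when the union of all exons was used as length, and SRSF4 then moved from place 6 to 8 and SRSF11 from 9 to 10.

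The summed level of the 10 members was 3161, 3271 and 3676 CPM (lowest, median and highest library) in Input Ctrl and 2119, 2246 and 2347 CPM in Input siRNAG5. In Polysome it was 3475, 4093 and 4854 CPM in Ctrl and 2459, 2701 and 2771 CPM in siRNAG5. On this TMM scale the siRNAG5 libraries lay below the Ctrl libraries in both fractions, with no overlap. In Polysome the separation depends on the scaling, since the members' shares of plain library totals overlapped there. The median SD of a member's log2 CPM was 0.11 in Input Ctrl, 0.08 in Input siRNAG5, 0.35 in Polysome Ctrl and 0.26 in Polysome siRNAG5, so the spread between Polysome libraries was the wider one.

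**Figure D1:**
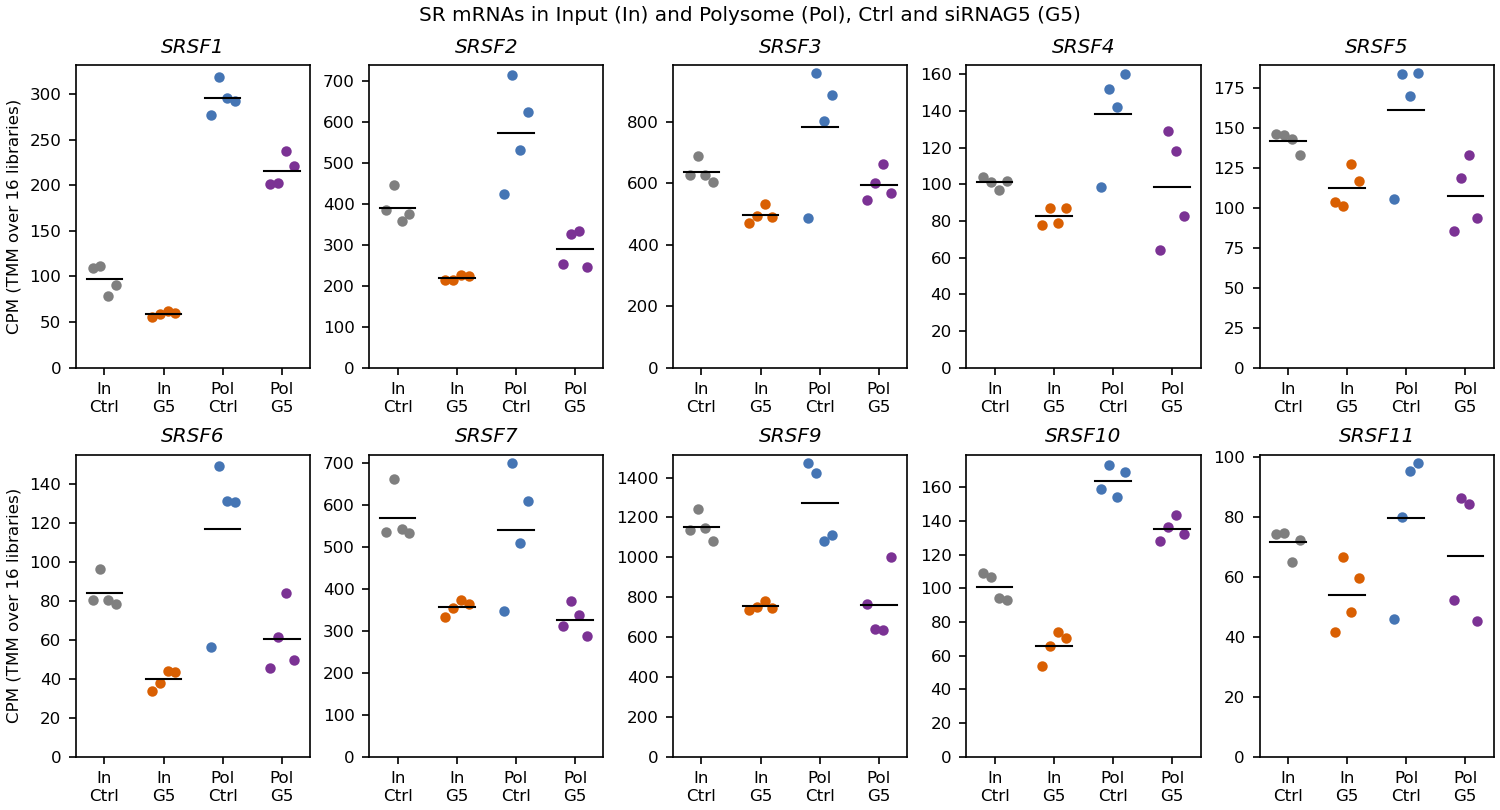
CPM of each SR mRNA (vertical axes, each starting at 0) in the 4 libraries of Input (In) and Polysome (Pol) from Ctrl and siRNAG5 (G5) cells. Each point is 1 library, ordered by replicate number, and the bar is the mean of 4. In these TMM-scaled CPM the groups of 9 members do not overlap in Input, and those of 4 do not in Polysome.

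The comparison of siRNAG5 with Ctrl in Input asked which SR mRNAs changed in the cytoplasm when Gemin5 was silenced. All 10 members were lower in siRNAG5 at an edgeR adjusted p under 0.05, where 19.1% of the 14134 genes tested were lower at that threshold. SRSF6, SRSF2, SRSF1, SRSF7, SRSF9 and SRSF10 also passed the fold threshold (log2 FC beyond 0.5) and were called lower, 6 of 10 where 6.02% of all genes were, and none was called higher. The median log2 FC was -0.60 over the members and 0.04 over all genes. The groups did not overlap for 9 members, with siRNAG5 below Ctrl, as they did not for 19.1% of the genes.

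SRSF6, which takes part in alternative splicing and is built of a pair of RNA recognition motifs and a long arginine-serine domain, had the largest decrease among the members. Its level was 80.5, 96.4, 80.2 and 78.55 CPM in Input Ctrl 1 to 4 and 34.0, 37.7, 44.1 and 43.55 CPM in Input siRNAG5 1 to 4. Every siRNAG5 library lay well below the lowest Ctrl library, and Ctrl 2 was the highest. SRSF6 fell to 48.0% of Ctrl, a log2 FC of -1.06 (SE 0.087, edgeR adjusted p = 1.961e-10). SRSF2, an SR protein that stays mainly in the nucleus, was at 385, 444, 357 and 374 CPM in Ctrl and at 214, 213, 226 and 224 CPM in siRNAG5. The siRNAG5 libraries were close to each other and far from the Ctrl libraries. SRSF2 fell to 56.7% of Ctrl (log2 FC -0.82, SE 0.068, edgeR adjusted p = 2.242e-10).

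SRSF1, the founding member of the family, which acts in constitutive and alternative splicing and shuttles to the cytoplasm, was at 109, 111, 78.3 and 90.3 CPM in Input Ctrl and at 55.1, 59.2, 61.9 and 59.9 CPM in Input siRNAG5. Its Ctrl libraries spread more than its siRNAG5 libraries, with Ctrl 3 and 4 the lower pair, and the groups did not overlap. The log2 FC was -0.71 (SE 0.086, edgeR adjusted p = 1.759e-07). SRSF7, an adaptor for mRNA export with a zinc knuckle, was at 536, 662, 543 and 534 CPM in Ctrl and at 333, 354, 374 and 363 CPM in siRNAG5. Ctrl 2 was again the highest library, and SRSF7 fell by 0.66 on the log2 scale (SE 0.070, edgeR adjusted p = 1.381e-08).

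SRSF9 was at 1139, 1244, 1146 and 1081 CPM in Input Ctrl and at 737, 753, 781 and 744 CPM in Input siRNAG5, again without overlap. It fell to 66.0% of Ctrl (log2 FC -0.60, SE 0.060, edgeR adjusted p = 5.806e-09). SRSF10, known as a splicing repressor when dephosphorylated in mitosis and after heat shock, was at 109, 107, 94.6 and 92.9 CPM in Ctrl and at 54.0, 65.6, 74.1 and 70.6 CPM in siRNAG5. Its groups did not overlap, and it fell to 66.2% of Ctrl (log2 FC -0.59, SE 0.083, edgeR adjusted p = 1.476e-06).

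The other 4 members passed the adjusted p but not the fold. SRSF3, the smallest SR protein and, with SRSF7, an export adaptor, was at 627, 690.2, 628 and 603 CPM in Input Ctrl and at 469, 493, 532 and 492 CPM in Input siRNAG5 (log2 FC -0.35, SE 0.062). SRSF5 had 146, 146, 143 and 133 CPM in Ctrl and 103, 101, 127 and 117 CPM in siRNAG5 (log2 FC -0.33, SE 0.073). SRSF4 had 104, 101, 97.1 and 102 CPM in Ctrl and 77.7, 86.8, 78.6 and 86.8 CPM in siRNAG5 (log2 FC -0.28, SE 0.068). For these 3 the groups did not overlap, although the differences were small. SRSF11 had 74.1, 74.5, 64.8 and 72.3 CPM in Ctrl and 41.6, 66.8, 48.2 and 59.75 CPM in siRNAG5 (log2 FC -0.39, SE 0.099, edgeR adjusted p = 0.002469). It was the 1 member whose groups overlapped, through siRNAG5 2 lying above Ctrl 3.

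The count of 6 called members was the same in all 14 alternative fits of the Input comparison, with each library left out in turn among them. Over all genes, the number called lower in these fits ran from 696 of 14423 (without Input Ctrl 2) to 977 of 14724 (without Input Ctrl 3 and 4). The adjusted p of the other 4 was lost with all 16 libraries in one fit (edgeR adjusted p = 0.1276 for SRSF3, 0.2842 for SRSF4, 0.1634 for SRSF5 and 0.2378 for SRSF11). Without Input Ctrl 3 and 4, the 2 Input libraries with most liver marker reads, 6 members were called and the median log2 FC of the members was -0.68. By seed site, the 6 members without AAGAGAA had log2 FC values of -0.33 to -1.06, and the 4 with it -0.28 to -0.59. SRSF1 (-0.71) and SRSF6 (-1.06), which hold the 3' UTR site of the listed strand, are among the members without AAGAGAA.

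**Figure D2:**
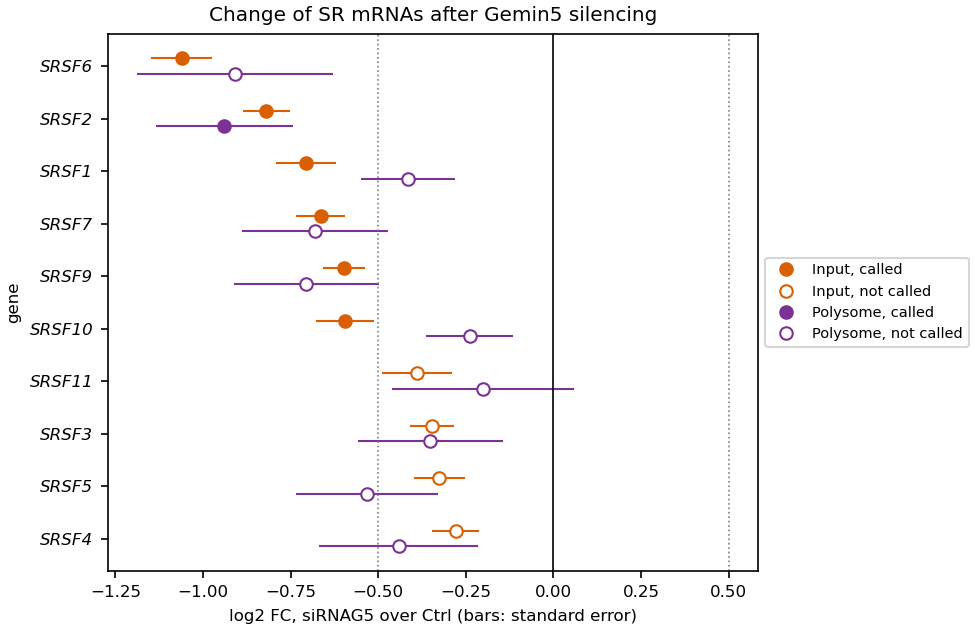
Log2 FC of each SR mRNA in siRNAG5 over Ctrl (horizontal axis), in Input and in Polysome, with 4 libraries per group. Bars are the standard error, filled points passed the adjusted p and the fold threshold, and dotted lines mark a log2 FC of -0.5 and 0.5. All 20 points lie below 0, and the bars in Polysome are wider than those in Input.

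In Polysome the same contrast asked which SR mRNAs changed among the mRNAs bound by several ribosomes. All 10 members had a log2 FC below 0, with a median of -0.49 against 0.03 over all genes, but 1 was called lower, SRSF2, where 4.00% of the 14420 genes tested were. Of the 10, 6 had an unadjusted p under 0.05, as had 3999 of the 14420 genes. In TMM-scaled CPM the groups did not overlap for SRSF1, SRSF2, SRSF9 and SRSF10, 4 of 10 where 10.0% of genes were lower without overlap.

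SRSF2 was at 423, 712.5, 531 and 622 CPM in Polysome Ctrl 1 to 4 and at 253, 326, 333 and 245 CPM in Polysome siRNAG5 1 to 4. All siRNAG5 libraries lay below Ctrl 1, the lowest Ctrl library. It fell to 52.2% of Ctrl, a log2 FC of -0.94 (SE 0.195, edgeR adjusted p = 0.01806). The call was lost without Ctrl 2 (log2 FC -0.80, edgeR adjusted p = 0.07102) and without siRNAG5 1 (log2 FC -0.88, edgeR adjusted p = 0.05902).

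SRSF9 was at 1474, 1424, 1084 and 1113 CPM in Polysome Ctrl and at 768, 642, 637 and 1001 CPM in Polysome siRNAG5, with a log2 FC of -0.71 (SE 0.207, edgeR adjusted p = 0.0555). SRSF1 was at 278, 319, 296 and 293 CPM in Ctrl and at 202, 203, 237 and 221 CPM in siRNAG5, with a log2 FC of -0.42 (SE 0.135, edgeR adjusted p = 0.07447). SRSF10 was at 159, 174, 155 and 169 CPM in Ctrl and at 128, 136, 143.5 and 132 CPM in siRNAG5, with a log2 FC of -0.24 (SE 0.125, edgeR adjusted p = 0.2361). In TMM-scaled CPM the groups of these 3 mRNAs were separate, and SRSF1 and SRSF10 varied little between libraries. None of them passed the test over all genes. On plain library totals the groups overlapped. SRSF10, for example, had 1907 of 11145324 reads in Ctrl 1 and 3544 of 16365110 in siRNAG5 2, the larger share. All fits used TMM, RLE or DESeq2 size factors, so none was free of such scaling.

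SRSF6 was at 56.2, 149, 131 and 130.5 CPM in Polysome Ctrl and at 45.55, 61.4, 84.2 and 49.6 CPM in Polysome siRNAG5. Ctrl 1 was below siRNAG5 2 and siRNAG5 3, which made the groups overlap, and the log2 FC was -0.91 (SE 0.279, edgeR adjusted p = 0.06295). SRSF7 was at 347, 699.6, 509 and 609 CPM in Ctrl and at 312, 372, 337 and 287 CPM in siRNAG5, with a log2 FC of -0.68 (SE 0.208, edgeR adjusted p = 0.0621). Here too Ctrl 1 lay among the siRNAG5 libraries.

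SRSF3 had 487, 960.1, 803 and 888 CPM in Polysome Ctrl and 547, 599.6, 664 and 569.5 CPM in Polysome siRNAG5. SRSF5 had 106, 184, 170.1 and 184 CPM in Ctrl and 85.6, 119, 133 and 93.5 CPM in siRNAG5. In both, Ctrl 1 was the only Ctrl library within or under the siRNAG5 range. SRSF4 had 98.35, 152, 142 and 160.1 CPM in Ctrl and 64.0, 129, 118 and 82.5 CPM in siRNAG5. SRSF11 had 46.0, 79.8, 95.3 and 98.0 CPM in Ctrl and 52.4, 86.3, 84.4 and 45.2 CPM in siRNAG5. The log2 FC of these 4 was between -0.20 (SRSF11) and -0.53 (SRSF5), and their groups overlapped.

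The Ctrl 1 library belonged to the high set. Within the low set, in TMM-scaled CPM, every siRNAG5 library lay below every Ctrl library for all 10 members, as for 36.5% of genes. Within the high set, where there is 1 Ctrl library, this held for 8 members, as for 38.3% of genes. The exceptions were SRSF3 and SRSF11. In Ctrl, where the high set is 1 library, SRSF6 was 1.22 higher on the log2 scale in the low set than in the high set, SRSF11 1.07 higher and SRSF3 0.80 higher. In siRNAG5 these differences were smaller, at 0.61, 0.81 and 0.18. Over all genes the median was 0.04 in Ctrl and -0.01 in siRNAG5. SRSF9 went the other way (-0.42 in Ctrl and -0.47 in siRNAG5), and SRSF1 (0.08 and 0.06) and SRSF10 (0.03 and 0.11) hardly differed between the sets. The sets were seen in these data, and no label ties them to a gradient, day or batch.

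With the set as a term, which leaves out Ctrl 2, edgeR called 3 members lower (SRSF2, SRSF6 and SRSF9) where 8.83% of genes were. With 1 surrogate variable it called 6 (SRSF2, SRSF4, SRSF5, SRSF6, SRSF7 and SRSF9) where 9.68% were. DESeq2 without either called 4 (SRSF2, SRSF6, SRSF7 and SRSF9) where 1200 of 27384 genes were (4.38%). That total takes in low-count genes that the edgeR filter removed, so this share cannot be set directly beside those of edgeR. SRSF2 was the member called in each of these fits, and SRSF9 and SRSF6 were called in all 3 of these alternatives. Leaving out 1 library moved the count from 1 to 4 (without Ctrl 1, when 424 of 14669 genes were called lower), to 2 (without siRNAG5 4, 836 of 14606) or to 0 (without Ctrl 2, 113 of 14705, or without siRNAG5 1, 254 of 14574). Reads on liver markers, which were 1273 to 1765 in the Polysome Ctrl libraries and 5 to 10 in the siRNAG5 libraries, follow the treatment in this fraction, so their part in the Polysome values cannot be told apart from it. They made up 88.9 to 158 CPM in Polysome Ctrl.

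**Figure D3:**
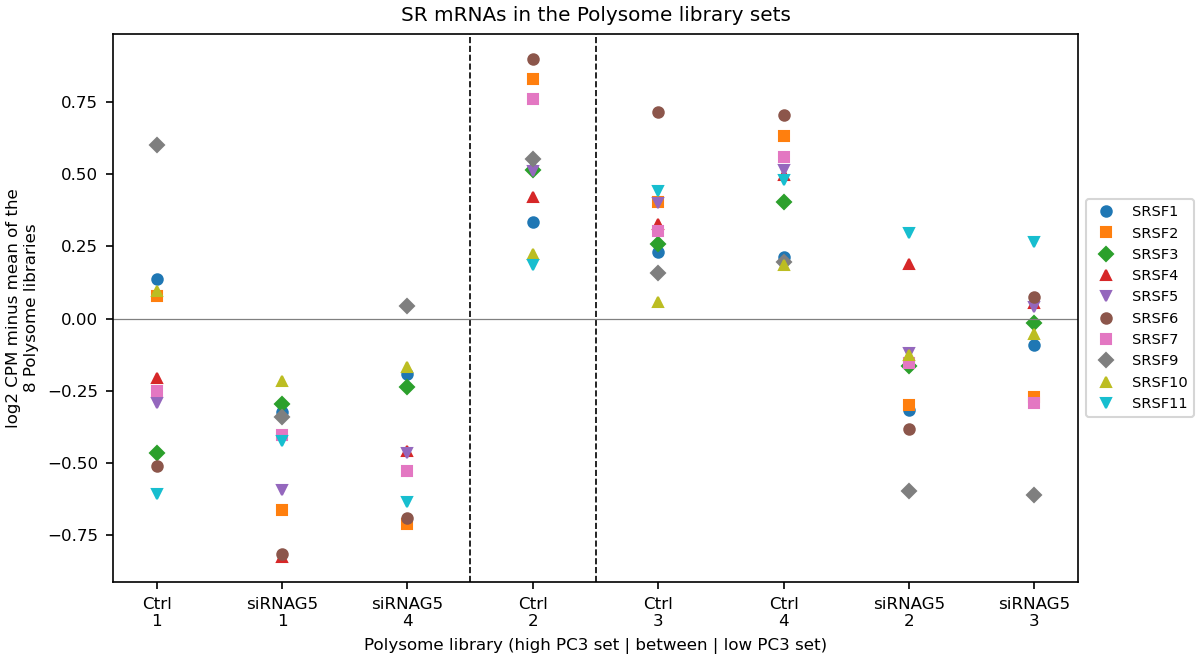
Log2 CPM of each SR mRNA in the 8 Polysome libraries, minus the gene's mean over them (vertical axis), with libraries ordered by set. Dashed lines part the high set, Ctrl 2 and the low set. SRSF6 and SRSF11 of Ctrl 1 lie well under those of Ctrl 3 and 4, while SRSF9 lies above.

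A single fit of all 16 libraries then compared the change between fractions (Polysome less Input), to see whether silencing altered an SR mRNA in polysomes beyond its change in the lysate. No member was called, and neither was any other of the 14958 genes (0.00% lower and 0.00% higher by edgeR, with 1089 genes at an unadjusted p under 0.05), while DESeq2 called 12 lower and 16 higher. By edgeR, 415 genes were called lower and 82 higher with 1 surrogate variable, and 29 and 28 with no filter on low counts. No member was among the genes called in these 3 fits. The median difference was -0.05 over the members and -0.06 over all genes. SRSF10 had the 1 unadjusted p under 0.05, with a difference of 0.33 on the log2 scale (95% interval 0.03 to 0.62, edgeR adjusted p = 0.6554). SRSF1 was next, at 0.26 (95% interval -0.05 to 0.58). For SRSF2 the interval was -0.56 to 0.25 and for SRSF9 -0.54 to 0.28. It was widest for SRSF6, from -0.51 to 0.74. Differences within a member's interval were not excluded by these data.

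Polysome was then set against Input in each treatment, to show how the members differ in their share of polysomal mRNA. Both comparisons use libraries of the comparisons above, and each value is relative to the TMM-scaled total of its own library, not the plain total. The scaling differs between libraries. SRSF1 had 1095 of 13347866 reads in Input Ctrl 1, printed as 109 CPM. In Polysome siRNAG5 1 it had 3942 of 14407396 reads, printed as 202 CPM. Fold changes on plain totals would therefore differ from those given here. SRSF1 had the largest excess among the members. In Ctrl its 4 Polysome libraries held 278 to 319 CPM and its Input libraries 78.3 to 111 CPM, a log2 FC of 1.62 (3.08-fold, SE 0.135, edgeR adjusted p = 2.535e-07). In siRNAG5 they held 202 to 237 CPM and 55.1 to 61.9 CPM, a log2 FC of 1.95 (3.88-fold, SE 0.107, edgeR adjusted p = 2.495e-07). The canonical transcript of SRSF1 shares 1690 bases on the same strand with another annotated gene (ENSG00000266086), so reads there may have been set aside as belonging to several genes. SRSF10 was the other member clearly apart, with 155 to 174 CPM in Polysome Ctrl against 92.9 to 109 CPM in Input Ctrl (log2 FC 0.71, SE 0.113) and 128 to 143.5 against 54.0 to 74.1 CPM in siRNAG5 (log2 FC 1.11, SE 0.120).

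In Ctrl, 3 members were called higher in Polysome (SRSF1, SRSF10 and SRSF2), where 20.8% of the 13666 genes tested were. The groups did not overlap for SRSF1 and SRSF10, 2 of 10 against 21.2% of genes. SRSF2 had a log2 FC of 0.56 (SE 0.157, edgeR adjusted p = 0.007447), and its call was lost without Polysome Ctrl 2 (log2 FC 0.43) and without Input Ctrl 3 and 4 (log2 FC 0.45). Without Polysome Ctrl 1 the count was 5 (3047 of 13910 genes were then called higher). In siRNAG5, 3 members were called higher (SRSF1, SRSF10 and SRSF6), where 23.9% of the 14795 genes tested were, and the groups of 5 members did not overlap, against 23.0% of genes. SRSF6 had a log2 FC of 0.68 there (SE 0.187, edgeR adjusted p = 0.00915), which was 0.47 and not called without Polysome siRNAG5 3. SRSF2, at 0.49, stayed just under the fold threshold with an edgeR adjusted p of 0.009142. Without Polysome siRNAG5 1 or siRNAG5 4 the count was 5 (3706 of 15020 and 3842 of 15119 genes were then called higher).

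SRSF7 was the 1 member with a log2 FC below 0 in both treatments (-0.06 in Ctrl and -0.04 in siRNAG5, SE 0.180 and 0.121), values that turned above 0 when 1 of some libraries was left out (up to 0.10 and 0.05). SRSF9 (0.16 and 0.09) and SRSF5 (0.19 and 0.03) were also close to 0, and SRSF3 (0.31 and 0.34), SRSF4 (0.46 and 0.34) and SRSF11 (0.17 and 0.40) lay between. No member was called lower in Polysome than in Input.

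**Figure D4:**
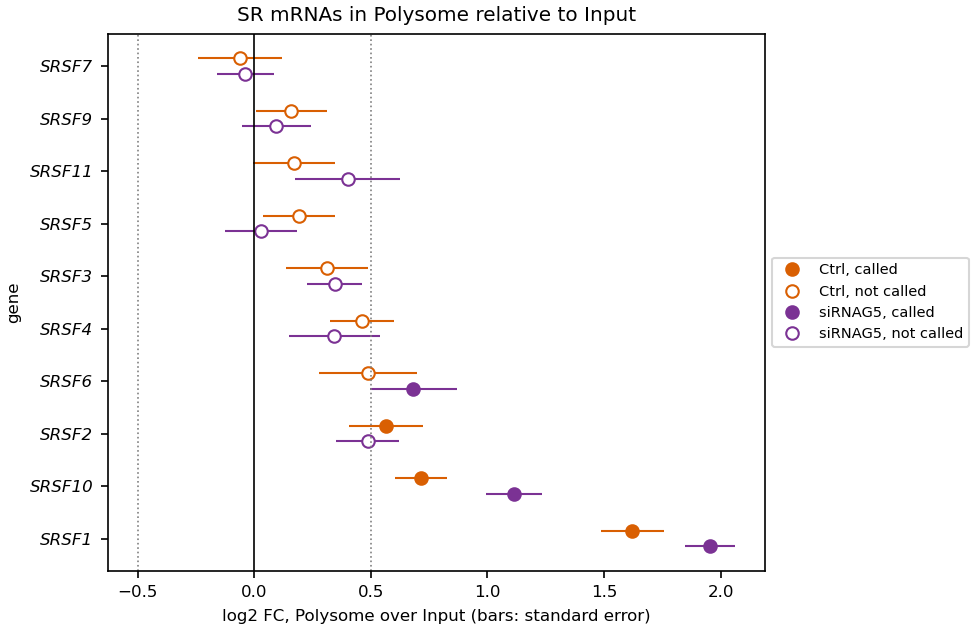
Log2 FC of each SR mRNA in Polysome over Input (horizontal axis), in Ctrl and in siRNAG5 cells, with 4 libraries per group. Bars are the standard error, filled points passed both thresholds, and dotted lines mark -0.5 and 0.5. SRSF1 lies at 1.62 and 1.95, apart from the other members, the next being SRSF10 at 0.71 and 1.11.

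All members lie on GRCh38 as follows in GENCODE v44, a later annotation of the build the authors used. SRSF10 (chr1:23964347-23980927), SRSF4 (chr1:29147743-29181900), SRSF7 (chr2:38743599-38751494), SRSF9 (chr12:120461672-120495946), SRSF1 (chr17:58000919-58007346) and SRSF2 (chr17:76734115-76737333) are on the minus strand. SRSF11 (chr1:70205682-70253052), SRSF3 (chr6:36594353-36605600), SRSF5 (chr14:69726900-69772005) and SRSF6 (chr20:43457893-43466046) are on the plus strand. Each has at least 1 annotated transcript marked for nonsense-mediated decay, from 1 in SRSF5 and SRSF6 to 6 in SRSF7. SRSF2 shares 568 bases of its canonical transcript, SRSF9 491 and SRSF1 303 with genes on the opposite strand, and whether the counting used strand is not given in the sources used here. SRSF3 has 5 named pseudogenes in the annotation, SRSF6 has 2 and SRSF1, SRSF2, SRSF9 and SRSF10 have 1 each, so reads that fit both could have been set aside as aligning to several places. Such reads made up 4.88 to 6.04% of a library in Input and 21.2 to 42.4% in Polysome.

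Among 17 other SR and SR-related genes, a list that holds splicing coactivators and snRNP proteins, 5 were called lower and 0 higher in Input, where 6.02% of all genes were called lower, with a median log2 FC of -0.30 against 0.04 over all genes. These were LUC7L, a U1 snRNP-associated protein (log2 FC -0.94, SE 0.087), U2AF2, the large subunit of the factor that binds the polypyrimidine tract (-0.74, SE 0.065), its partner U2AF1 (-0.68, SE 0.205), LUC7L3 (-0.64, SE 0.088) and TRA2A, an SR-like splicing activator (-0.55, SE 0.074). U2AF1 was at 1.75 to 4.04 CPM in Input, and reads of its near-identical copy make its level uncertain. SRSF8 and SRSF12, in this list and not among the members, were not called in either fraction. SRSF8 had a log2 FC of -0.30 in Input and -0.33 in Polysome, and SRSF12 -0.05 and 0.07. In Polysome 3 of the 17 were called lower, where 4.00% of all genes were, and 0 higher. They were LUC7L (-1.26, SE 0.230), U2AF1 (-1.04, SE 0.277) and U2AF2 (-0.81, SE 0.169), with a median of -0.35 against 0.03. Of 8 genes for kinases that phosphorylate SR proteins and for their nuclear import, SRPK1, a cytoplasmic SR kinase, was called lower in Input (-0.57, SE 0.100) and none was called higher. In Polysome 0 of the 8 were called by edgeR, SRPK1 having a log2 FC of -0.31 (SE 0.179). The medians of this list were -0.10 in Input and -0.01 in Polysome, near those of all genes (0.04 and 0.03).

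The mean profile of the 10 members over the 16 libraries, with each gene centred on its own mean log2 CPM, was compared with that of the 14948 other genes that passed the filter. The closest were GCLM (root mean square difference 0.110 on the log2 scale), PSME3 (0.111), NIP7 (0.120), BAG2 (0.125) and MPZL1 (0.132). The members themselves differed from that mean by 0.162 (SRSF3) to 0.673 (SRSF1), so that SRSF1, through its excess in Polysome, was the least like the others.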

How the data were processed

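Per the labels and the study's methods, RNA of cytoplasmic lysates and polysomes of HEK293 cells was made into stranded libraries. The authors used STAR 2.5.3a to map reads on GRCh38 (Ensembl 91) and QoRTs to count them on genes, and deposited the raw counts of 1 library per file. Reads listed apart from genes (4.88 to 42.4% at several places, 0.667 to 1.33% in no gene, 4.14 to 7.41% in several genes) were left out. No 2 libraries were identical. From the counts, each comparison was fitted over all genes with the quasi-likelihood test of edgeR 4.0.16 (R 4.3.3), after filterByExpr and TMM scaling. A call needed a log2 FC beyond 0.5 and an adjusted p (Benjamini-Hochberg, over all genes tested) under 0.05. SE is the log2 FC divided by the root of F, and 95% intervals are 1.96 SE to each side. CPM were scaled by TMM over all 16 libraries and the fits within each comparison, so ratios of printed CPM differ slightly from the FC. Gene names and transcripts came from GENCODE v44, which named 57532 of 58302 identifiers, and promoters from RefSeq (GRCh38.p14). SRSF2 had no promoter entry. Of the seed sites, those in the 3' UTR of SRSF3 are the ones printed.

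The members and gene lists were chosen with earlier results of these data known. Named genes were the 10 members, GEMIN5, called genes of both lists, SRSF8, SRSF12 and the 5 closest profiles. Replicates were described by the study as independent samples. Alternatives were DESeq2 1.42.0, RLE size factors, no filter, the replicate number as a block, all 16 libraries in one fit, sva 3.50.0 with 1 surrogate variable, the Polysome set as a term, and libraries left out. Fits within each Polysome set were added after seeing the data. The fits were run on simulated counts with planted changes. These held no Polysome library sets, liver marker reads or pairing of lysates, so that run does not bear on such features. Members had 510 to 21699 reads per library, and p-values rest on the spread between 4 libraries. Figures were drawn with matplotlib 3.10.9.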

Additional observations from a re-analysis of the deposited data

Results flagged for a closer look

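In Input Ctrl, replicate 2 stood far from the other 3 libraries for SRSF6 (96.39 CPM) and SRSF7 (661.6 CPM). The gap to the next library was 0.892 and 0.928 of the whole range of the group, above Dixon's 95% critical value for 4 samples. These were 2 of 40 groups of 4 libraries tested, and chance alone gives about 1 in 20. Without Input Ctrl 2 both genes were still called lower in siRNAG5 in Input.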

How the results depend on the processing

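In Input the count of members called lower was 6 in all alternatives and with any 1 library left out (6 to 6), and no member was called higher. Over all genes, 696 to 977 were called lower in these fits. The adjusted p alone was under 0.05 for 10 members in each of these fits but that of all 16 libraries, where it was for 6. In Polysome the count of 1 became 4 with DESeq2, 4 with no filter on low counts (941 of 27384 genes called lower), 5 with all 16 libraries in one fit (1520 of 14958), 6 with 1 surrogate variable, 3 with the library set as a term, and 0 to 4 with 1 library left out. Within the high set it was 2 (1080 of 15347 genes were called lower) and within the low set 4 (1451 of 14560), fits chosen after seeing the data. In the high set the lone Ctrl library has no replicate of its own. With a replicate block the Polysome count was 2 (558 of 14420 genes). Between siRNAG5 and Ctrl, the correlations of same-numbered libraries ran from -0.53 to 0.48. Between Polysome and Input, which the study took from the same lysates, they ran from -0.21 to 0.22. There they exceeded those with other numbers for Ctrl 2 and 4 and siRNAG5 1 and 2. For Ctrl 1 and 3 and siRNAG5 3 and 4 they did not. The main fits left such a pairing out, and these correlations do not settle whether it is absent. Members called higher in Polysome than in Input became 5 in Ctrl with no filter on low counts (3257 of 26624 genes), and ran from 2 to 5 in Ctrl and in siRNAG5 with 1 library left out. Over members and alternatives, 732 log2 FC values kept their direction and their call, which joins both thresholds, 37 were newly called and 5 no longer were. The other 26 changed sign, none of them called with either sign. In Polysome these were SRSF3 (0.20) and SRSF11 (0.086) within the high set. In Polysome against Input they were, in siRNAG5, SRSF5 with all 16 libraries in one fit (-0.059) and SRSF7 with DESeq2 (0.0002), and with 1 library left out SRSF7 in Ctrl (-0.22 to 0.10), SRSF5 (-0.090 to 0.13), SRSF7 (-0.11 to 0.052) and SRSF9 (-0.028 to 0.17) in siRNAG5. For the difference between fractions they were SRSF3 with DESeq2 (0.0034), SRSF3 (0.010) and SRSF7 (0.026) without Input Ctrl 3 and 4, and SRSF6 (-0.094), SRSF9 (0.0047) and SRSF11 (-0.13) with 1 surrogate variable. With 1 library left out they were SRSF3 (-0.19 to 0.070), SRSF6 (-0.092 to 0.25), SRSF7 (-0.19 to 0.10) and SRSF11 (-0.016 to 0.30). The causes were not tested.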
